A study of Homo sapiens with 54 samples.

Results

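Afatinib, an irreversible inhibitor of the ERBB family of receptor tyrosine kinases, was given to NCI-N87, an established human stomach cancer cell line with a high level of ERBB2 (HER2). The comparison comprised 3 libraries labelled afatinib and 3 labelled control, chosen by the line and drug in their labels, which is 6 of the 54 libraries of the study. The study set kinase inhibitors against controls in colorectal, stomach and breast cancer lines. Every group used here was grown as a monolayer line in DMEM with fetal bovine serum and antibiotics, and the labels name no engineered allele. The groups were NCI-N87 with and without afatinib, BT-474 (a breast line, also high in ERBB2) with and without afatinib, and MKN-45 (the other stomach line) with and without afatinib, each with 3 libraries. BT-20, another breast line, with 3 libraries with and 3 without afatinib, entered only an alternative fit of 4 lines. The labels give neither the dose nor the exposure time nor the vehicle. Nor do they name separate cultures behind the 3 libraries of a group, and the p-values therefore measure only how far these samples spread, which may be a technical spread. NCI-N87 is 1 tumour-derived line, and no other HER2-high stomach line was measured.

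ERBB2 has no known ligand of its own and signals by pairing with EGFR or ERBB3. ERBB3 has a weak kinase but docks PI3-kinase, so the pairs drive both the RAS to ERK cascade and the PI3-kinase to AKT pathway. Active ERK raises a set of feedback genes, among them DUSP6, the Sprouty genes, ETV4 and ETV5, while AKT holds FOXO factors out of the nucleus and promotes mTORC1, which in turn raises translation of ATF4, the activator of amino acid synthesis genes. HER2-amplified cells usually depend on this signal for growth.

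RNA was read from the 3′ ends of transcripts, and the values below are CPM, the count relative to the total of its library, after TMM scaling, unless a log2 value is named. The NCI-N87 libraries held 5106615 to 7329071 counts in the controls and 3401565 to 5675326 with afatinib, so afatinib 3 was the shallowest. Markers of an epithelial line were abundant, with 11 of 12 tested and summed levels of 5481 to 7677 CPM in the controls and 5676 to 5776 CPM with afatinib. The stomach markers CLDN18 and TFF1 were at or near 0, with at most 0.593 and 3.12 CPM in any library. Summed markers of fibroblasts (4 of 10 tested, 19.4 to 56.3 CPM in the controls and 24.2 to 33.0 CPM with afatinib), leukocytes (2 of 10 tested, 21.6 to 30.9 and 23.9 to 28.5 CPM) and endothelium (1 of 8 tested, 6.52 to 13.6 and 6.21 to 8.26 CPM) were low in both groups. The leukocyte marker PTPRC had no count in 5 libraries and 0.194 CPM in afatinib 1. Genes of MKN-45 that NCI-N87 lacks were seen at up to 2.02% of their level in MKN-45 (afatinib 3), and at 1.24% in control 1.

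Control 1 stood apart from the other controls and close to the treated libraries. On the first principal component, which held 48.4% of the variance, controls 2 and 3 scored 32.2 and 43.2, control 1 scored -18.8, and the afatinib libraries scored -12.2, -12.2 and -32.2. Of the tested genes, 71.6% lay nearer to the afatinib mean than to the mean of the other controls in control 1, against 33.8% and 33.5% in controls 2 and 3. Counts of control 1 differed from those of controls 2 and 3 by a chi-square of 32.9 and 37.3 per degree of freedom, but from those of the afatinib libraries by 6.88 to 7.38. No pair of libraries agreed within sampling noise, the closest being afatinib 1 and 2 at 2.84, so none was counted as a duplicate.

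**Figure D1:**
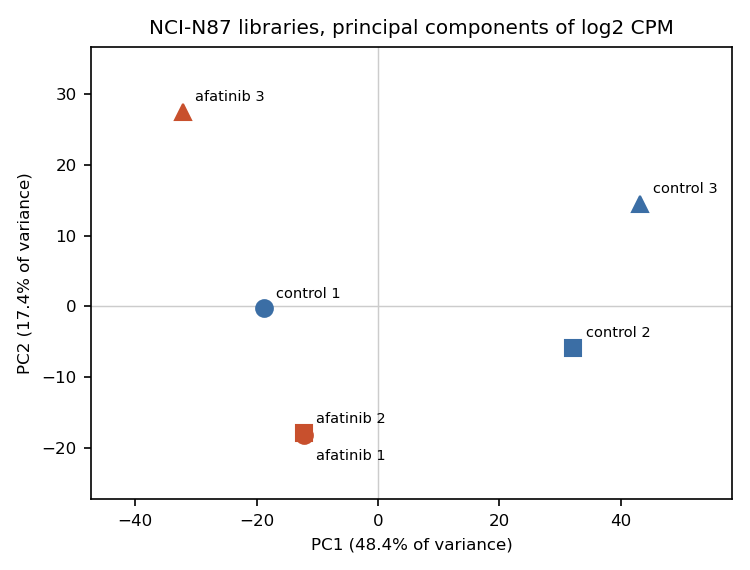
First 2 principal components of log2 CPM for the 6 NCI-N87 libraries; both axes are component scores, blue marks controls and red marks afatinib. Control 1 lies at -18.8 on the first component with the afatinib libraries (-12.2 to -32.2), and controls 2 and 3 lie at 32.2 and 43.2.

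Several library-wide measures moved with this split. Mitochondrial ribosomal RNA (RNR1 and RNR2) took 8.15% of the counts in control 1, 3.39% and 3.18% in controls 2 and 3, and 10.3%, 10.3% and 4.96% in the afatinib libraries. The nuclear RNA MALAT1 took 2.35%, 1.92% and 1.58% in the controls and 2.71% to 2.82% with afatinib. Long genes were relatively high in control 1 and with afatinib: within a library, Spearman's rho across genes between the level (against the mean of the 6 libraries) and the genomic span was 0.167, -0.184 and -0.25 in controls 1 to 3 and 0.163, 0.153 and 0.097 in afatinib 1 to 3. Genes of 1 library are not independent replicates. The part of these measures, and of the label of control 1, in the results below was not tested. Counts of called genes in NCI-N87 are therefore given with all 6 libraries and without control 1. Leaving out a library because it lies near the other group widens the contrast, and the fit without it is given as a description of how much rests on it. Its adjusted p-values follow a choice made on these same values and are no separate test of the drug. Where a gene is said to rise or fall without control 1, this names its call in that fit only.

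With all 6 libraries, edgeR's quasi-likelihood test with Benjamini-Hochberg adjustment called 0 of 12472 genes higher and 0 lower with afatinib (0% of genes). The lowest adjusted p was 0.372, and 1523 genes had an unadjusted p under 0.05. DESeq2 gave an adjusted p to 2681 genes and called 10 higher and 28 lower (1.42%), and limma with library weights, which set control 1 to a weight of 0.307, called 925 higher and 790 lower. Without control 1, edgeR called 1053 of 12850 genes higher and 1055 lower (8.19% and 8.21%), of which 472 differed by at least 2-fold. Leaving out control 2, control 3, afatinib 1 or afatinib 2 gave 0 calls in edgeR with 670 to 904 genes at an unadjusted p under 0.05. Leaving out afatinib 3 gave 2 calls, both higher: TRNQ, a mitochondrial transfer RNA, and ABO, the blood group glycosyltransferase. In 1970 genes (15.8%) the groups did not overlap, with all afatinib libraries above all controls in 1002 (8.03%) and below in 968 (7.76%). These shares of all genes are the background for the list counts that follow.

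**Figure D2:**
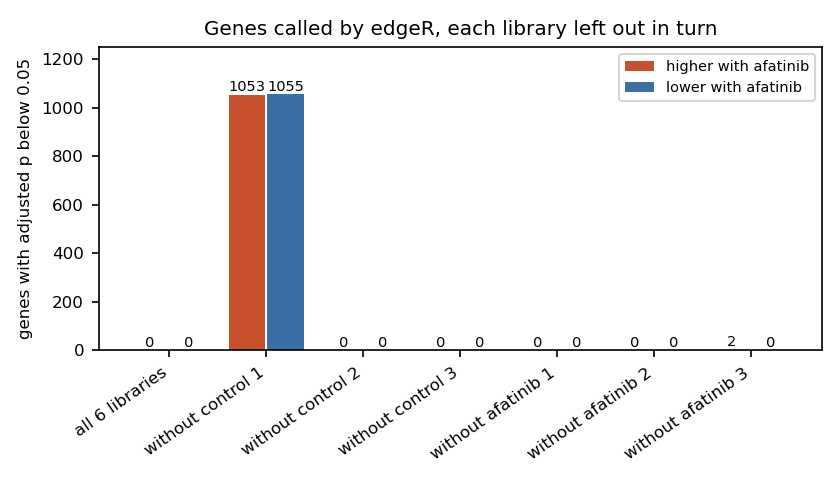
Number of genes called by edgeR (adjusted p below 0.05) in NCI-N87 with all 6 libraries and with each library left out in turn; red bars count genes higher with afatinib, blue bars genes lower. Calls appear without control 1 (1053 and 1055) and without afatinib 3 (2 and 0), and are 0 in the other settings.

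The targets came first. ERBB2 (chromosome 17, 39688094 to 39728658, GRCh38), the receptor HER2, stood at 1700.5, 2309 and 2055 CPM in controls 1 to 3 and at 1915, 2214 and 1756 CPM in afatinib 1 to 3. The groups overlapped fully, and the log2 difference was -0.043 with a 95% interval of -0.39 to 0.30. EGFR (chromosome 7, 55019017 to 55211628) stood at 24.5, 33.0 and 44.5 CPM in the controls and 23.7, 21.4 and 17.4 CPM with afatinib. All afatinib libraries lay below all controls (control 1 closely), and the log2 difference of -0.71 (SE 0.23) did not pass in edgeR (adjusted p = 0.372). ERBB3 (chromosome 12, 56080108 to 56103505), the partner that docks PI3-kinase, stood at 199, 284 and 278 CPM and at 229, 209.9 and 216 CPM. Here control 1 was the lowest library of all. With control 1 left out, edgeR called EGFR (log2 -0.89, adjusted p = 0.0111) and ERBB3 (log2 -0.38, adjusted p = 0.0339) lower, which made 0 higher and 2 lower of 9 tested receptors and receptor inhibitors. Of all genes, that fit called 8.19% higher and 8.21% lower. ERRFI1, also among the chosen readouts, passed in neither fit (log2 -0.37 with all 6 libraries). ERBB4 was near the limit of detection, at 1.58 CPM in control 1, 1.42 CPM in afatinib 3 and 0 in the other libraries.

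The genes next to ERBB2 on 17q12, which are amplified together with it in many HER2-high tumours, were also high in NCI-N87. In the controls, and without TMM scaling, GRB7, an adaptor that binds phosphorylated ERBB2, stood at 3788 ± 1532 CPM (SD, n = 3) in NCI-N87 against 620 ± 25.7 CPM in BT-474 and 119 ± 4.39 CPM in MKN-45. MIEN1 stood at 1232 ± 188 CPM against 285 ± 4.95 and 95.02 ± 9.01 CPM. The wide error of GRB7 came from its controls, which read 2053, 4275 and 4845 CPM after TMM scaling. With afatinib GRB7 read 2507, 3134 and 1596 CPM, so control 1 lay inside the treated range. The 12 tested genes of the region had a median log2 difference of -0.024 against -0.0044 for all genes, and edgeR called none with all 6 libraries. Without control 1, edgeR called CDK12, a transcription kinase, higher (log2 0.40, adjusted p = 0.0325). It called GRB7 (log2 -0.93, adjusted p = 0.0203) and STARD3, a cholesterol transporter (log2 -0.35, adjusted p = 0.0455), lower. Of all genes, that fit called 8.19% higher and 8.21% lower.

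Among the ligands of the family, AREG (chromosome 4, 74445136 to 74455005), which encodes amphiregulin and binds EGFR, differed most. It stood at 50.2, 169.9 and 143 CPM in controls 1 to 3 and at 48.5, 42.2 and 31.6 CPM with afatinib. The groups did not overlap, but control 1 lay beside afatinib 1 and far below the other controls. The log2 difference was -1.57 (SE 0.37); its adjusted p was 0.372 in edgeR and 0.0174 in DESeq2, and without control 1 edgeR gave log2 -1.94 (SE 0.17, adjusted p = 0.000384). HBEGF, another EGFR ligand, stood at 7.52, 14.99 and 21.7 CPM and at 10.7, 10.1 and 7.12 CPM, and fell without control 1 (log2 -0.96, adjusted p = 0.0237). TGFA stood at 20.4 to 37.8 CPM in the controls and 19.7 to 24.8 CPM with afatinib and passed in neither fit. Nor did EREG (log2 -0.13 with all 6 libraries). In all, 5 of 10 ligand genes were expressed enough to be tested, with 0 called by edgeR on 6 libraries and 2 lower without control 1 (8.21% of all genes).

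Among genes of ERK output, DUSP6, DUSP4, SPRY4, SPRY2 and CCND1 showed no common direction. DUSP6 (chromosome 12, 89347235 to 89352501), the phosphatase that ERK induces against itself, stood at 84.3, 125 and 149 CPM in the controls and at 148, 150.4 and 62.1 CPM with afatinib. Afatinib 1 and 2 were level with the highest control and afatinib 3 was the lowest library, which gave a log2 difference of 0.015 with a 95% interval of -0.68 to 0.71. The groups also overlapped for DUSP4 (9.69, 16.4 and 13.3 CPM against 15.5, 13.3 and 9.97 CPM) and SPRY4 (11.9, 12.5 and 9.07 CPM against 6.59, 15.5 and 11.1 CPM), with other libraries at the extremes. SPRY2, another inhibitor of receptor signalling, had a log2 difference of 0.45 (SE 0.24). The cyclin CCND1 stood at 232, 219.9 and 247 CPM and at 266, 257 and 252 CPM, a log2 difference of 0.15 (SE 0.12). Every treated library lay slightly above every control for CCND1. The other chosen readouts PHLDA1, FOSL1 and MYC had log2 differences of -0.079, -0.27 and 0.28. In none of these genes did afatinib differ from control in edgeR, with or without control 1.

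Other genes of the same list had treated libraries below the controls, although none passed with all 6 libraries. ETV5 (chromosome 3, 186046314 to 186109089), an ETS transcription factor induced by ERK, stood at 51.6, 73.7 and 81.3 CPM in the controls and at 45.8, 41.1 and 37.9 CPM with afatinib. No treated library reached a control, and the log2 difference was -0.73 (SE 0.18, adjusted p = 0.372 in edgeR; without control 1, log2 -0.90, adjusted p = 0.00252). KCNN4, a calcium-activated potassium channel, showed the same order, with 48.5, 74.8 and 91.7 CPM against 38.4, 42.3 and 40.7 CPM. ETV4 read 14.8, 16.03 and 14.6 CPM against 12.99, 11.97 and 6.83 CPM and passed in neither fit. DUSP5, the nuclear ERK phosphatase, stood at 5.93 CPM in control 1, 21.8 and 24.1 CPM in controls 2 and 3, and 5.70 to 11.05 CPM with afatinib. In the fit without control 1, edgeR called 0 of the 22 tested ERK output genes higher and 6 lower. The shares of all genes in that fit were 8.19% and 8.21%. Among the 6 were DUSP5 (log2 -1.53, adjusted p = 0.00467), KCNN4 (log2 -1.05, adjusted p = 0.00132) and ETV5. EMP1, an epithelial membrane protein, was another (log2 -1.01, adjusted p = 0.00188). With all 6 libraries the list had 0 calls, a median of -0.098 against -0.0044 for all genes, and 1 gene above and 4 below all controls.

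Immediate early genes, which serum and growth factors induce within minutes, were tested in 15 of 19 cases. EGR1 stood at 101, 176 and 153 CPM and at 171, 173 and 121 CPM, and FOS varied within both groups, with 23.5 to 75.5 CPM in the controls and 14.2 to 52.7 CPM with afatinib. ATF3, a stress-induced factor, read 5.34, 15.1 and 14.2 CPM against 4.85, 5.52 and 3.13 CPM. MCL1, an anti-apoptotic BCL2 relative, read 239.5, 323 and 323 CPM against 235, 213 and 204 CPM. Of the 15, edgeR called none with all 6 libraries. Without control 1 it called 3 lower and none higher (8.21% and 8.19% of all genes). These were ATF3 (log2 -1.67, adjusted p = 0.00345), MCL1 (log2 -0.58, adjusted p = 0.00711) and IER2, a nuclear early-response protein (log2 -0.48, adjusted p = 0.0263).

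Genes on the list of FOXO and insulin signalling feedback gave mixed values. TXNIP (chromosome 1, 145992435 to 145996579), which limits glucose uptake, stood at 263, 657 and 711 CPM in the controls and at 472, 459 and 526 CPM with afatinib. Control 1 lay below and controls 2 and 3 above the treated libraries, and the log2 difference was -0.17 (SE 0.30), or -0.51 (SE 0.11, adjusted p = 0.0114) without control 1. PIK3R1, the regulatory subunit of PI3-kinase, stood at 272, 155 and 125 CPM and at 300.2, 316 and 264 CPM. The stress sensors SESN3 (27.5, 16.3 and 11.6 CPM against 26.8, 32.0 and 29.9 CPM) and SESN1 (16.4, 10.2 and 8.36 CPM against 17.5, 16.6 and 24.5 CPM) had the same pattern, with control 1 near the treated libraries. The fit without control 1 called these 3 higher (log2 1.06 for PIK3R1, 1.07 for SESN3 and 1.04 for SESN1, with adjusted p of 0.0017, 0.00673 and 0.0145). It called 4 of the 21 tested genes lower, among them TXNIP and YPEL3, a growth-suppressing zinc-finger gene (log2 -0.91, adjusted p = 0.0102). Of all genes it called 8.19% higher and 8.21% lower. With all 6 libraries none was called and the median was -0.088. The chosen readouts INSR and IRS2 passed in neither fit (log2 -0.15 and 0.34 with all 6 libraries).

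Of the lists, the ATF4 programme had the lowest median log2 difference. ATF4 is a transcription factor that raises amino acid synthesis, amino acid import and feedback regulators. CHAC1 (chromosome 15, 40953471 to 40956512), which degrades glutathione, stood at 13.5, 71.3 and 76.0 CPM in controls 1 to 3 and at 13.2, 11.6 and 9.40 CPM with afatinib. Control 1 was level with afatinib 1, while the other controls were far above every treated library. The log2 difference was -2.23 (SE 0.52, adjusted p = 0.372 in edgeR), and without control 1 it was -2.68 (SE 0.16, adjusted p = 6.67e-05). DDIT4 (chromosome 10, 72273924 to 72276036), an inhibitor of mTORC1, stood at 184, 632 and 616 CPM and at 160.4, 177 and 99.4 CPM. Its log2 difference was -1.71 (SE 0.41), and -2.10 (SE 0.20, adjusted p = 0.000454) without control 1.

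ASNS (chromosome 7, 97851677 to 97928441), asparagine synthetase, stood at 58.2, 210.3 and 279 CPM in the controls and at 84.0, 86.5 and 49.3 CPM with afatinib, so control 1 lay inside the treated range. TRIB3, a pseudokinase that restrains ATF4, stood at 35.01, 137 and 154 CPM and at 40.5, 38.3 and 32.5 CPM. DDIT3, the stress factor CHOP, stood at 32.4, 99.3 and 118 CPM and at 34.7, 31.3 and 24.8 CPM. In all 3 genes controls 2 and 3 were above every other library, and control 1 was with the treated ones. Without control 1 edgeR gave log2 -1.73 for ASNS (adjusted p = 0.00128), -1.97 for TRIB3 (adjusted p = 9.28e-05) and -1.84 for DDIT3 (adjusted p = 0.000324).

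Over the whole ATF4 list, 25 of 26 genes were tested and edgeR called none with all 6 libraries. Their median log2 difference was -0.93 against -0.0044 for all genes, and 7 of the 25 lay below all controls in every treated library, against 7.76% of all genes. DESeq2 gave an adjusted p to 2681 genes only and called 1.04% of these lower, and the list genes among them were not counted. It called 4 list genes lower: GPT2, alanine aminotransferase (adjusted p = 0.0266), MTHFD2 and SHMT2 of mitochondrial one-carbon metabolism (adjusted p = 0.0465 and 0.0373), and SLC7A5, a leucine importer (adjusted p = 0.0394). It also called lower the transfer RNA ligases AARS, GARS, TARS and DARS (log2 -0.94, -0.93, -0.59 and -0.59, adjusted p = 0.024 to 0.0487), which are not on the list and were named after their values were seen. TARS stood at 212, 259.9 and 277 CPM in the controls and at 173, 162 and 165 CPM with afatinib, and DARS at 149, 166 and 185 CPM and at 122, 110.1 and 99.4 CPM, so that in these genes control 1 kept above all treated libraries. When control 1 was left out, edgeR called 22 of the 25 list genes lower and none higher (8.21% and 8.19% of all genes), with a median of -1.20. The 3 that passed in neither fit were ALDH18A1, which starts proline synthesis (72.7 to 82.9 CPM against 77.3 to 107 CPM), XPOT, which exports transfer RNA from the nucleus (9.07 to 35.2 CPM against 14.5 to 16.4 CPM), and VLDLR, a lipoprotein receptor (1.58 to 3.12 CPM against 0.570 to 3.68 CPM).

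The promoters of CHAC1 and ASNS are shown because both genes are textbook ATF4 targets, and because each holds the motif TGATGNAA, the form of the composite element that ATF4 binds. The sequences are from RefSeq on GRCh38.p14, run 5′ to 3′ on the strand of the gene from 250 bases before to 50 bases after a transcript start, and capitals mark the motif. Where RefSeq lists several starts for a gene the first in its table was used; that of ASNS lies inside the span given above, and further starts were not searched for the list genes. CHAC1 lies at chr15:40953221-40953520 on the plus strand and ASNS at chr7:97872359-97872658 on the minus strand.
CHAC1: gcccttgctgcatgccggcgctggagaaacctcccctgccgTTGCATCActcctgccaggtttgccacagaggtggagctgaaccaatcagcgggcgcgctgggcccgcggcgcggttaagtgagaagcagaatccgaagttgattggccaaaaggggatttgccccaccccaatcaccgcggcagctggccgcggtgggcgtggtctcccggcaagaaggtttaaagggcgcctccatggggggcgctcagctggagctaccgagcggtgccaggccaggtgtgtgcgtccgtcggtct
ASNS: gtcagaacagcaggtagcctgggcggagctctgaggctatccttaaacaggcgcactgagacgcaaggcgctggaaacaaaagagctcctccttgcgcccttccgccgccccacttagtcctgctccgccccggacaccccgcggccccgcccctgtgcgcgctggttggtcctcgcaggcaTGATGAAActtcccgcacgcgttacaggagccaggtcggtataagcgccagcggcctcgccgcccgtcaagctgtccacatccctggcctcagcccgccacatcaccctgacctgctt
In CHAC1 the motif begins 209 bases before the start and reads on the opposite strand, and in ASNS it begins 68 bases before the start on the gene's strand. On either strand, 3 of the 21 list genes with a promoter sequence (14.3%) held the motif, the third being SLC3A2, against 3.62% of 35116 promoters of this length and 1.64% of the 9075 that belong to tested genes. DDIT4, TRIB3 and DDIT3 held no match in this window. A match describes the letters only.

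**Figure D3:**
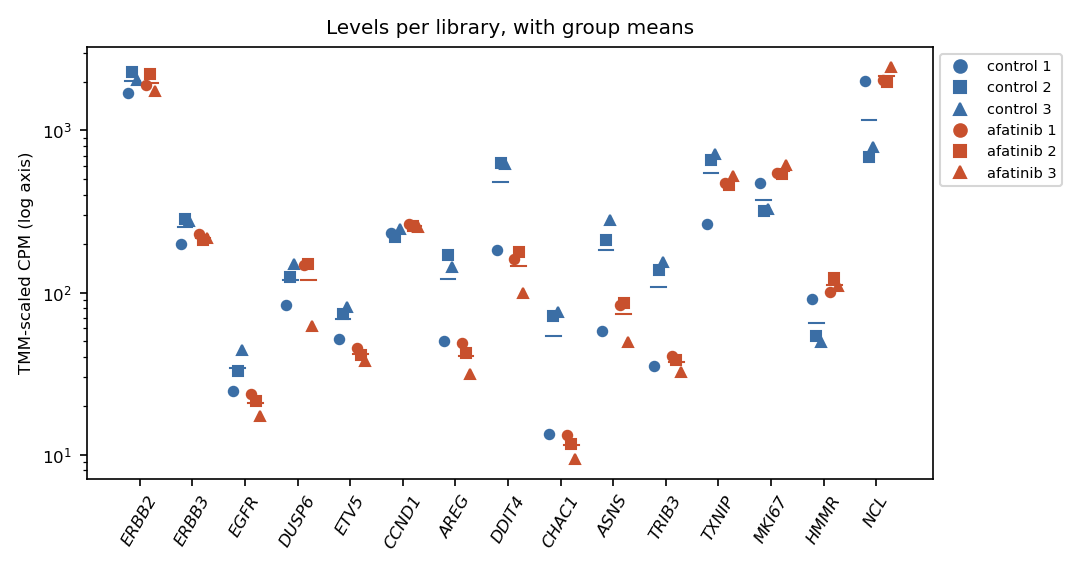
Levels of 15 genes in the 6 NCI-N87 libraries (TMM-scaled CPM, log axis); blue marks controls, red marks afatinib, symbols give the library number and short lines the group means. For AREG, DDIT4, CHAC1, ASNS and TRIB3 control 1 lies with the afatinib libraries, and for NCL and HMMR it lies nearer to them than to controls 2 and 3. The groups overlap for ERBB2 and DUSP6, and for CCND1 every afatinib library lies slightly above every control.

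Proliferation genes had medians above that of all genes. MKI67 (chromosome 10, 128096659 to 128126423), the nuclear protein Ki-67 of cycling cells, stood at 474.1, 320.2 and 327 CPM in the controls and at 545, 535 and 608 CPM with afatinib. Every treated library was above every control, and the log2 difference was 0.59 (SE 0.17, 95% interval 0.21 to 0.97, adjusted p = 0.372 in edgeR), or 0.79 (SE 0.11, adjusted p = 0.002) without control 1. CENPF and CENPE, kinetochore proteins of mitosis, followed this order, with 587, 366 and 366 CPM against 699, 695 and 709 CPM for CENPF and 133, 84.9 and 81.1 CPM against 143, 162 and 139 CPM for CENPE. HMMR (chromosome 5, 163460632 to 163491941), a spindle protein, read 91.6, 53.7 and 49.7 CPM and 101, 123 and 109.9 CPM. Other mitotic genes were level: TOP2A, which untangles DNA, read 3602, 3408 and 4026 CPM against 4012, 3960.1 and 4187 CPM, and CDK1, the mitotic kinase, read 119, 127 and 115 CPM against 123, 111 and 129 CPM. PLK1 read 63.5, 95.8 and 130.0 CPM against 80.9, 96.3 and 77.7 CPM.

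Of the 28 tested G2/M genes, edgeR called none with all 6 libraries and 8 lay above all controls (8.03% of all genes did), with a median of 0.21. Without control 1 it called 9 higher and 1 lower, against 8.19% and 8.21% of all genes (HMMR at log2 1.10, adjusted p = 0.00112; CENPF at 0.93, adjusted p = 0.000805; CENPE at 0.83, adjusted p = 0.00257). DESeq2 on all 6 libraries called CENPF higher (log2 0.67, adjusted p = 0.0471). Of the 30 tested G1/S and DNA replication genes, none was called with all 6 libraries, and the median was 0.26. Only 1 lay above and 1 below all controls (8.03% and 7.76% of all genes). Control 1 scored 0.29 on this list, above afatinib 1 and 2 (0.19 and 0.18) and below afatinib 3 (0.38). Without control 1 edgeR called 10 higher and 1 lower. POLA1, the catalytic subunit of the primase-polymerase, stood at 69.0, 29.7 and 30.0 CPM and at 63.0, 57.6 and 70.6 CPM, and CCNE2, a cyclin of S-phase entry, at 22.9, 15.1 and 10.6 CPM and at 24.0, 22.5 and 29.0 CPM. MCM2 (259, 229 and 223 CPM against 226, 236 and 258 CPM) and RRM2 (81.5 to 94.1 CPM against 79.3 to 106 CPM), both needed for DNA replication, passed in neither fit. The cell cycle inhibitor CDKN1A (p21) read 33.8, 74.7 and 81.3 CPM against 47.7, 33.5 and 25.1 CPM and fell without control 1 (log2 -1.13, adjusted p = 0.00727), while CDKN1B (p27), a FOXO target, read 36.8, 41.8 and 35.3 CPM against 37.2, 34.98 and 36.5 CPM.

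Genes of ribosome assembly and of the ribosome itself lay on opposite sides. NCL (chromosome 2, 231453531 to 231464484), the nucleolar protein nucleolin, stood at 2029, 688 and 787 CPM in the controls and at 2041, 1993 and 2476 CPM with afatinib. Control 1 was level with afatinib 1 and 2, and the log2 difference was 0.89 (SE 0.35, adjusted p = 0.38), or 1.55 (SE 0.13, adjusted p = 0.000324) without control 1. NOP56, of the small nucleolar RNA machinery, read 217, 103 and 113 CPM against 231, 221 and 297 CPM. TSR1, a factor of small-subunit assembly, read 48.1, 20.3 and 24.4 CPM against 53.9, 49.2 and 65.8 CPM. Both had every treated library above every control, and again control 1 was nearest to the treated ones. Across 24 ribosome assembly genes the median was 0.48 with 0 edgeR calls. Without control 1 edgeR called 13 higher and none lower (8.19% and 8.21% of all genes) with a median of 0.66.

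Ribosomal protein genes had a median log2 difference of -0.18. RPL18 stood at 868, 1455 and 1859 CPM in the controls and at 781, 828 and 694 CPM with afatinib. RPS27 stood at 304, 510.0 and 478 CPM and at 240.3, 250.01 and 255 CPM, and RPL37 at 938, 1248 and 1426 CPM and at 887, 809 and 757 CPM. In all 3 genes no treated library reached a control, and control 1 was the lowest control. DESeq2 called RPL18 (log2 -0.86, adjusted p = 0.0373) and RPS27 (log2 -0.80, adjusted p = 0.0201) lower with all 6 libraries. Of 24 tested ribosomal protein genes, edgeR called none with all 6 libraries and 8 lower, none higher, without control 1 (8.21% and 8.19% of all genes). These short transcripts have many processed pseudogenes, to which counts can be assigned in part.

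The respiratory chain had 20 tested nuclear genes, of which 7 lay below all controls, against 7.76% of all genes. CYC1, of complex III, stood at 171, 202 and 194 CPM in the controls and at 125, 123 and 142 CPM with afatinib. It is 1 of the genes in which control 1 was close to the other controls, and DESeq2 called it lower (log2 -0.55, adjusted p = 0.0266). NDUFV1, of complex I, read 131, 158 and 188 CPM against 116, 97.9 and 129 CPM. The fit without control 1 called 4 of the 20 lower and none higher (8.21% and 8.19% of all genes). Mitochondrially encoded RNA was high in control 1 and with afatinib: RNR1, the small ribosomal RNA, read 13358, 3339 and 3093 CPM against 11686, 12783 and 6868 CPM, and the transfer RNA TRNK read 348, 61.9 and 61.5 CPM against 539, 501 and 166 CPM. MTRNR2L2, a nuclear near-copy of RNR2, followed RNR1 (107, 19.9 and 18.7 CPM against 91.7, 99.2 and 72.6 CPM), and its counts cannot be told apart from those of RNR2.

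Glycolysis and hypoxia-type genes had 21 tested members, 7 of them below all controls, against 7.76% of all genes. SLC16A3, a lactate exporter, stood at 71.2, 118 and 133 CPM and at 65.7, 61.7 and 63.2 CPM. GAPDH read 1892, 1954 and 2116 CPM against 1555, 1663 and 1437 CPM, with control 1 close to the other controls. HK2, the hexokinase that commits glucose, read 19.4, 39.6 and 31.5 CPM against 19.97, 18.2 and 21.4 CPM. In the fit without control 1, edgeR called 8 of the 21 lower (8.21% of all genes) and none higher, among them SLC16A3 (log2 -0.99, adjusted p = 0.000985), HK2 (log2 -0.86, adjusted p = 0.00844) and VEGFA, the angiogenic factor (log2 -0.74, adjusted p = 0.0224). Sterol genes differed little: of 22 tested, 2 were called higher and none lower without control 1, SQLE (log2 0.65, adjusted p = 0.0157) and HMGCS1 (log2 0.45, adjusted p = 0.0339).

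Chaperones of the cytosol and of the endoplasmic reticulum did not share a direction. HSPH1, of the HSP110 family, stood at 387, 153 and 162 CPM in the controls and at 306, 329 and 391 CPM with afatinib, and HSPD1, the mitochondrial HSP60 kept on the same list, at 848, 384 and 385 CPM and at 726, 723 and 908 CPM. For both, control 1 lay inside the treated range. Without control 1, edgeR called 6 of 14 such genes higher and none lower (CHORDC1, an HSP90 co-chaperone, at log2 1.25, adjusted p = 0.000869; HSPH1 at 1.11, adjusted p = 0.001). Of 16 genes of the unfolded protein response it called 3 higher and 5 lower: PDIA6, a disulfide isomerase, rose (log2 1.03, adjusted p = 0.001), and HERPUD1, of protein degradation, DNAJB9, a co-chaperone, and XBP1, the transcription factor, fell (log2 -1.14, -1.51 and -0.71, adjusted p = 0.00274, 0.0111 and 0.00342). Of all genes, the fit without control 1 called 8.19% higher and 8.21% lower. With all 6 libraries neither list had an edgeR call.

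No member of the epithelial lists passed in edgeR with all 6 libraries. S100P, a calcium-binding protein of gastrointestinal tumours, stood at 132, 729 and 766 CPM in the controls and at 156, 126 and 103 CPM with afatinib, and KRT16, a stress keratin, at 2.57, 11.6 and 12.3 CPM and at 3.49, 1.29 and 1.42 CPM. In both, control 1 lay with the treated libraries, and without it edgeR gave log2 -2.55 for S100P (adjusted p = 6.67e-05) and -2.50 for KRT16 (adjusted p = 0.00301). That fit called 7 of 16 tested keratin and stratified epithelial genes lower and none higher, 3 of 6 mucin and trefoil genes lower and none higher, and 2 of 17 gut differentiation genes higher and 1 lower. Of all genes it called 8.19% higher and 8.21% lower. Of the 11 tested epithelial line markers it called 2 higher and 6 lower, and their median was -0.28 with all 6 libraries and -0.47 without control 1. MUC1, a membrane mucin, read 62.1, 149 and 152 CPM against 64.6, 57.1 and 57.2 CPM. DESeq2 called it lower with all 6 libraries (log2 -1.03, adjusted p = 0.0487). Against most of these markers EPCAM, an epithelial adhesion molecule, stood at 731, 561 and 492 CPM against 916, 929.7 and 835 CPM (DESeq2 log2 0.58, adjusted p = 0.0431; edgeR adjusted p = 0.372).

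**Figure D4:**
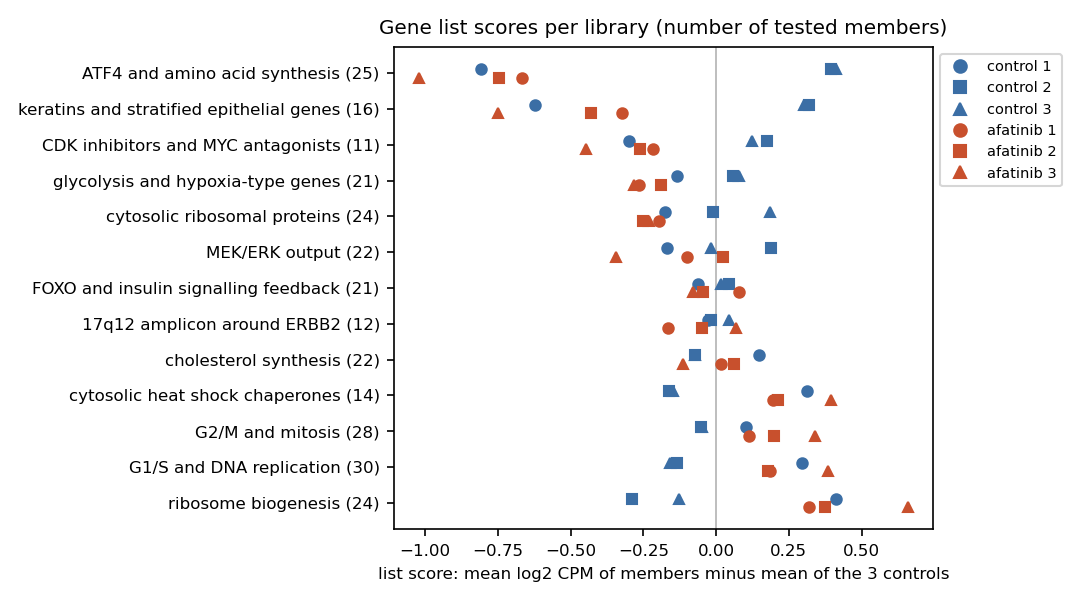
List scores per NCI-N87 library: tested members' log2 CPM (number of members in brackets), averaged and set against the mean of the 3 controls, with blue for controls and red for afatinib. On the ATF4 list control 1 scores -0.81 beside afatinib (-0.67 to -1.02) while controls 2 and 3 score 0.40 and 0.41, and on ribosome biogenesis control 1 scores 0.41 beside afatinib (0.32 to 0.66).

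Immune, apoptotic and lysosomal lists had no edgeR call with all 6 libraries. Without control 1, edgeR called 8.19% of all genes higher and 8.21% lower. In that fit 6 of 14 genes of MHC class I presentation were lower and none higher (HLA-E, at 186, 340.4 and 382 CPM against 219, 214 and 156 CPM, log2 -0.89, adjusted p = 0.00485). Of 23 interferon-stimulated genes 2 were higher and 4 lower, and of 12 NF-kB targets and chemokines none was higher and 1 lower. Of 17 p53 targets 1 was higher and 5 lower, and of 21 lysosome and autophagy genes none was higher and 3 lower. BBC3, the p53 target PUMA, read 71.2, 202 and 251 CPM against 83.6, 79.5 and 41.6 CPM (log2 -1.72 without control 1, adjusted p = 0.00203), and 4 of 15 BCL2 family genes were lower and none higher. BCL2L11, which encodes BIM and is raised in many cells when ERK is inhibited, read 24.1, 18.8 and 10.2 CPM against 24.8, 23.6 and 23.9 CPM and passed in neither fit. ULK1, the kinase that starts autophagy, read 63.5, 135 and 141 CPM against 67.9, 63.7 and 59.5 CPM (log2 -1.12 without control 1, adjusted p = 0.000626). Over all 36 lists, members were called 0 times by edgeR with 6 libraries and 171 times without control 1. The fit without control 1 called 16.4% of all genes. In these totals a gene on several lists is counted in each, and the lists were chosen with earlier results of these data known.

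By size alone, among genes whose groups did not overlap and whose log2 CPM averaged 4 or more, the 10 lowest log2 differences belonged to CHAC1, DDIT4, TSPAN4, AREG, STRA6, UNC5B-AS1, HAX1, PIH1D1, GPT2 and MPZL3, and none passed in edgeR (adjusted p = 0.372). TSPAN4, a tetraspanin of migrasomes, stood at 16.4, 27.4 and 28.9 CPM in the controls and at 6.40, 6.63 and 10.5 CPM with afatinib. HAX1, a mitochondrial survival protein, stood at 38.2, 76.1 and 74.0 CPM and at 23.5, 26.3 and 26.2 CPM, and PIH1D1, an assembly factor for kinase complexes, at 103, 165 and 218 CPM and at 68.6, 82.1 and 53.5 CPM. In these 3 genes even control 1 was above every treated library by a clear margin. DESeq2 called PIH1D1 lower (log2 -1.25, adjusted p = 0.00916), the lowest adjusted p of that test. UNC5B-AS1 is an antisense gene whose reads and its partner's cannot be told apart without a stated strand setting.

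The 10 highest were FAM83B, UBD, UGT1A1, HMGN2, MYB, CEP135, WDR52, FAM198B, AHNAK2 and CEP128, with log2 differences from 0.90 (CEP128) to 1.44 (FAM83B) and adjusted p of 0.372 to 0.38. Without control 1 the values of CEP128 and MYB were both 1.49 (adjusted p = 0.0012 and 0.00277 in edgeR), and without afatinib 3 those of UGT1A1 and UBD were 0.63 and 0.87. FAM83B, which couples EGFR to downstream kinases, stood at 12.5, 10.7 and 5.81 CPM in the controls and at 19.0, 22.5 and 37.3 CPM with afatinib. FAM198B, a Golgi protein, read 20.4, 17.9 and 20.5 CPM against 33.9, 33.1 and 45.6 CPM, and AHNAK2, a scaffold protein, 104, 72.1 and 66.8 CPM against 187, 159 and 112 CPM. DESeq2 called AHNAK2 higher (log2 0.92, adjusted p = 0.0266). The counts of UGT1A1, which shares exons with its neighbours, and of HMGN2, which has many pseudogenes, are uncertain. Without control 1, TCEA2, an elongation factor (4.15, 43.4 and 44.4 CPM against 9.50, 7.18 and 1.71 CPM), SLC43A1, an amino acid transporter (10.9, 50.2 and 56.0 CPM against 13.2, 14.9 and 11.4 CPM), and PCK2, the mitochondrial PEP carboxykinase (24.5, 85.9 and 84.6 CPM against 28.7, 22.8 and 20.2 CPM), joined the 10 lowest beside S100P, TRIB3 and DDIT3. The 10 highest then gained the mitochondrial RNAs TRNQ, TRNK and RNR1, the RNR2 near-copy MTRNR2L2, NCL, and COX16, a complex IV assembly factor (81.9, 12.6 and 14.7 CPM against 81.1, 72.4 and 75.8 CPM).

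BT-474 answered the same drug with far more calls, and the lines share no library. In BT-474, edgeR called 2673 of 12768 genes higher and 2784 lower (20.9% and 21.8%, 42.7% in all). The difference between the lines' drug effects, NCI-N87 minus BT-474, passed in 1091 of 13946 genes in the higher direction (7.82%) and 1133 in the lower (8.12%). Without control 1 these counts were 2142 and 2000 of 14370 (14.9% and 13.9%). With NCI-N87 control 2, any of the BT-474 controls, or BT-474 afatinib 1 or 2 left out, the lower count was 700 to 735.

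Of the lists, the 2 cell cycle lists had the highest share of members past the test of the difference. In BT-474 all 28 tested G2/M genes fell, with a median log2 difference of -2.62, and 29 of 30 G1/S genes fell, with a median of -1.52. The difference between the lines passed in 28 of 28 and 28 of 30 of these genes, higher in NCI-N87 each time. TOP2A had a log2 effect of 0.14 in NCI-N87 and -2.61 in BT-474, a difference of 2.73 (SE 0.13, adjusted p = 3.79e-08 in edgeR). PLK1 had -0.18 and -3.53 (difference 3.32, SE 0.34, adjusted p = 2.22e-05), and MKI67 had 0.59 and -1.99 (difference 2.57, SE 0.20, adjusted p = 1.18e-06). These counts were 28 and 30 without control 1.

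Some genes of ERK output and of the FOXO and insulin signalling list also differed between the lines. DUSP6 fell by 1.68 on the log2 scale in BT-474 (87.9 ± 4.46 CPM to 27.4 ± 0.983 CPM, SD, n = 3; adjusted p = 1.81e-08 in edgeR), and its effect in NCI-N87 was higher by 1.68 (SE 0.38, adjusted p = 0.00983). DUSP4 gave a like difference, 1.57 (SE 0.26, adjusted p = 0.00154). Of 22 ERK output genes, 4 passed the test of the difference as higher in NCI-N87 and none as lower (7.82% and 8.12% of all genes), or 5 and 2 without control 1, while ETV5, with -0.73 in NCI-N87 and -0.67 in BT-474, did not (difference -0.081, SE 0.30, adjusted p = 0.895). TXNIP rose in BT-474 from 110.5 ± 51.7 to 1453 ± 82.2 CPM, and the difference between the lines was -3.90 (SE 0.46, adjusted p = 8.42e-05). Of 21 genes on the FOXO and insulin signalling list, 15 rose in BT-474. The test of the difference passed in 10 as lower in NCI-N87 and in none as higher (12 and 1 without control 1). Among the 10 were PIK3IP1, an inhibitor of PI3-kinase (-1.79, adjusted p = 0.0196), and YPEL3 (-1.90, adjusted p = 0.002). IRS1, the insulin receptor adaptor, was another (-1.01, adjusted p = 0.00172). ERBB3 rose in BT-474 (log2 0.66, adjusted p = 3.58e-06) and differed by -0.89 (SE 0.17, adjusted p = 0.00327), and AREG rose there by 0.72 and differed by -2.30 (SE 0.44, adjusted p = 0.00366).

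**Figure D5:**
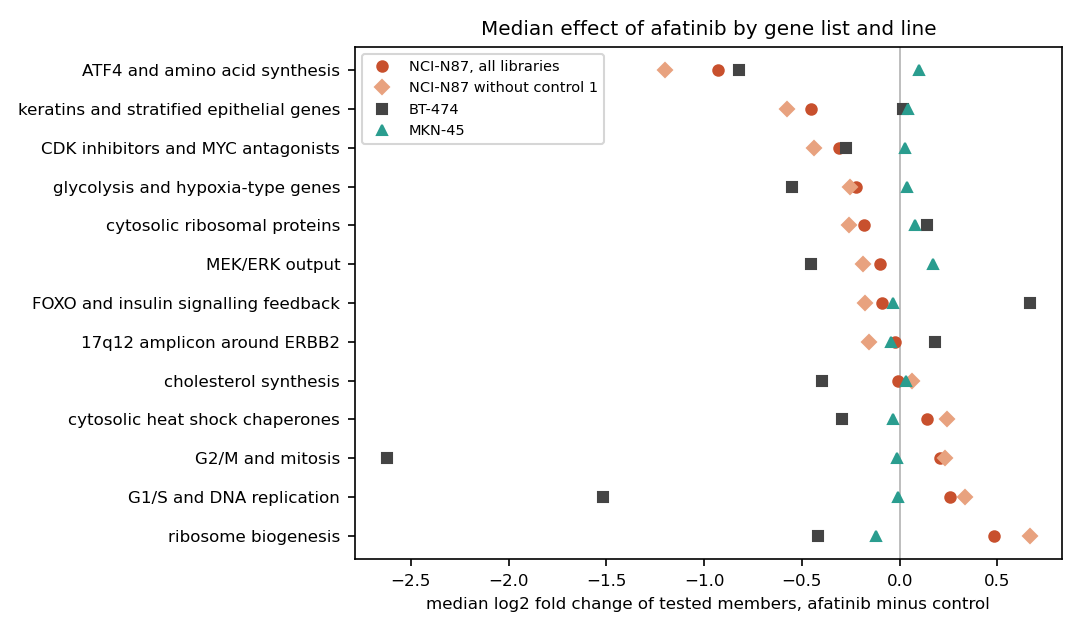
Median log2 fold change (afatinib minus control) of the tested members of 13 gene lists in NCI-N87 with all 6 libraries, NCI-N87 without control 1, BT-474 and MKN-45. The G2/M list lies at -2.62 in BT-474 and 0.21 in NCI-N87, and the ATF4 list at -0.82 in BT-474 and -0.93 in NCI-N87.

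The ATF4 list did not separate the lines. It had 0 of 25 genes past the test of the difference in either direction (edgeR, adjusted p below 0.05), although 21 of 24 fell in BT-474 with a median of -0.82. ASNS had -1.31 in NCI-N87 and -1.59 in BT-474 (difference 0.27, SE 0.54, adjusted p = 0.78), and TRIB3 had -1.55 and -1.13 (difference -0.45, SE 0.50, adjusted p = 0.576). These standard errors leave room for differences of about 1 log2 unit. Without control 1, 8 of the 25 differed, all lower in NCI-N87, among them CHAC1 (-1.97, adjusted p = 5.42e-06) and DDIT4 (-1.26, adjusted p = 0.00162). Ribosome genes differed: 13 of 24 assembly genes (19 without control 1) were relatively higher in NCI-N87 (NOP56 by 1.49, SE 0.30, adjusted p = 0.00542) and 5 of 24 ribosomal protein genes (11 without control 1) relatively lower (RPS27 by -1.38, SE 0.23, adjusted p = 0.00152). Of the 1013 genes called higher in NCI-N87 without control 1 and tested in both lines, 115 were also called higher in BT-474 (11.4% of the first list and 5.06% of the second) and 438 lower (43.2%). Of the 965 called lower, 231 were called lower in BT-474 (23.9% and 8.66%) and 270 higher (28%), where BT-474 called 19.7% of the shared genes higher and 23.1% lower.

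MKN-45, where ERBB2 stood at 83.8 ± 4.51 CPM in the controls (SD, n = 3), gave 0 calls of 12358 genes in edgeR (0%), with 664 at an unadjusted p under 0.05. The test of NCI-N87 minus MKN-45 passed in 2 of 13791 genes (0.0145%), 1 higher and 1 lower in NCI-N87 (0.00725% each). PMP22, a myelin and epithelial junction protein, was higher by 4.26 (SE 0.62, adjusted p = 0.0455). It stood at 0.198, 0.130 and 0.142 CPM in the NCI-N87 controls and at 2.71, 4.42 and 2.56 CPM with afatinib, against 6.49 ± 1.06 and 6.55 ± 1.66 CPM in MKN-45 (SD, n = 3). All controls of NCI-N87, control 1 included, held 1 count of it, and the treated libraries 9 to 24. FRAS1, an extracellular matrix protein, was lower by 4.97 on the log2 scale (SE 0.68, adjusted p = 0.0455), with 8.86 to 12.7 CPM in every NCI-N87 library and a shift from 0.0492 ± 0.0853 to 2.40 ± 0.34 CPM in MKN-45. Without control 1 the counts were 820 higher and 495 lower, and 10 and 9 of the 12 settings that left out 1 library lost PMP22 and FRAS1. CHAC1, DDIT4 and AREG had log2 effects of -0.18, 0.39 and 0.052 in MKN-45, and their differences from NCI-N87 did not pass (adjusted p = 0.359, 0.301 and 0.34).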

How the data were processed

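The study measured RNA from cultured cancer lines with a 3′ end kit (Lexogen QuantSeq), per the labels. The deposited counts are whole numbers of reads per gene symbol, not normalized, that the authors obtained with Trimmomatic, STAR and featureCounts on hg38, per the submitters' processing notes; versions, annotation, strand setting and filters were not found in the labels or headers used here. Libraries were assigned by their labels, and 12 columns that matched no sample of the series were not used. Counting 3′ ends makes a value depend little on transcript length, and counting by symbol can split or merge reads of near-identical genes.

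Genes passed edgeR's filterByExpr (minimum count 10, minimum total 15), were scaled with TMM and tested with edgeR 4.0.16 (quasi-likelihood, R 4.3.3). Benjamini-Hochberg adjustment was over all genes tested, with a threshold of 0.05. Fold changes kept edgeR's default prior count. A prior count of 2 was used only for log2 CPM per library, as in the principal components and list scores. Each line was fitted alone, and the difference between lines was an interaction term in a fit of both lines. The scripts were tested on simulated data. DESeq2 1.42.0 and limma 3.58.1 with library weights were alternatives, beside other size factors, no filter, 1 fit over 4 lines, a replicate block, robust dispersion and each library left out. Other adjusted p-values in the text come from edgeR. Replicate numbers in the labels were not taken as pairs. Python 3.11.15 with matplotlib 3.10.9 made the figures.

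Named genes are 28 chosen targets and readouts, the 10 highest and lowest log2 differences among genes that average 4 or more on the log2 CPM scale and whose groups do not overlap (with all libraries and without control 1), up to 4 called members with the largest absolute fold change of each list in the fit without control 1, and the 5 highest and 5 lowest called differences between lines. Not every called list member under this rule is given in the text. Other list members in the text were chosen after their values were seen. Gene lists and named readouts were chosen with earlier results of these data known. Depth differs by library and limits low genes: a gene with no count can hold up to 3 counts. RefSeq positions matched 11163 of 12472 tested symbols. Fewer cells of a type and less RNA per cell cannot be told apart in bulk RNA.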

Additional observations from a re-analysis of the deposited data

Results flagged for a closer look

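The afatinib effect in NCI-N87 differed from that in another line, by edgeR's interaction term with Benjamini-Hochberg adjustment, for the genes below, which are the 5 highest and 5 lowest called differences from BT-474 under the rule for named genes and both called differences from MKN-45.

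The 5 highest differences from BT-474 were those of ATP6V0E2, FAM111B, HMMR, PRR11 and MARVELD1. FAM111B, a protease of DNA replication, differed by 5.91 (log2, adjusted p = 2.13e-07). It read 139 ± 11.1 CPM (SD, n = 3) in the BT-474 controls and 3.89 ± 1.10 CPM with afatinib, and 53.1 to 110.0 CPM in the NCI-N87 controls and 105 to 153 CPM with afatinib. HMMR differed by 4.54 (adjusted p = 1.25e-06), with 45.4 ± 3.33 to 3.29 ± 1.31 CPM in BT-474. PRR11, a mitotic regulator, differed by 4.41 (adjusted p = 2.38e-10), with 656 ± 12.95 to 31.2 ± 2.03 CPM in BT-474 and 121 to 146 CPM in all NCI-N87 libraries. MARVELD1, a membrane protein, differed by 4.22 (adjusted p = 0.000639), but was low in BT-474 (2.48 ± 0.373 to 0.109 ± 0.0946 CPM). ATP6V0E2, a proton pump subunit, differed by 6.81 (adjusted p = 0.0429); afatinib 2 read 5.15 CPM and the other NCI-N87 libraries held no count. Its difference was 0.27 to 7.47 with 1 library left out and lost its call in 9 of 12 such fits, and no fold is given for it.

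The 5 lowest differences from BT-474 belonged to genes with few or no counts in the BT-474 controls. In NCI-N87 the controls and then the afatinib libraries read 109 to 159 and 165 to 175 CPM for CDX2, 28.5 to 58.7 and 27.9 to 39.6 CPM for GCNT3, 29.9 to 34.2 and 33.4 to 39.0 CPM for IGFBP6, 72.2 to 89.4 and 75.8 to 85.5 CPM for SLC17A9, and 242 to 534 and 294 to 372 CPM for SPINK1. CDX2, the intestinal transcription factor (-7.16, adjusted p = 0.000138), and GCNT3, a mucin glycosyltransferase (-6.64, adjusted p = 0.00426), had no count in the BT-474 controls and 3.55 ± 1.03 and 1.34 ± 0.276 CPM with afatinib, so these fitted values are no bound. IGFBP6, which binds IGF2 (-6.47, adjusted p = 0.00835), SLC17A9, a nucleotide transporter (-5.13, adjusted p = 5.75e-05), and SPINK1, a trypsin inhibitor (-4.81, adjusted p = 0.00504), read 0.0432, 0.0891 and 0.0872 CPM in the BT-474 controls and 6.21 ± 5.71, 3.62 ± 1.39 and 2.26 ± 0.628 CPM with afatinib. A set of 25 genes high in NCI-N87 and low in BT-474 stood in BT-474 at 0.85% to 0.927% of the NCI-N87 level in the controls and 0.995% to 1.24% with afatinib. The part of reads shared between libraries in these 5 genes was not tested.

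Against MKN-45, PMP22 differed by 4.26 and FRAS1 by -4.97 (adjusted p = 0.0455 for both), and most fits with 1 library left out lost them (10 and 9 of 12).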

How the results depend on the processing

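Counts of called genes are given as higher and lower. In NCI-N87 (0 and 0 with all 6 libraries), DESeq2 size factors, robust dispersion, a 2-fold minimum, leaving out RNR1 and RNR2, and the replicate block also gave 0 and 0. Calls appeared with no filter on low counts (50 and 147), DESeq2 (10 and 28), 4 lines in one fit (373 and 476) and limma with library weights (925 and 790). Leaving out 1 library gave 0 to 1053 and 0 to 1055, the highest without control 1, where DESeq2 called 845 and 838 and limma 1148 and 1198. For NCI-N87 minus BT-474 (1091 and 1133), leaving out 1 library gave 739 to 2142 and 700 to 2000, and the replicate block 833 and 707. For NCI-N87 minus MKN-45 (1 and 1), the counts were 56 and 84 with no filter, 12 and 32 in DESeq2, 18 and 43 with 4 lines in one fit, 0 and 0 with the replicate block, and 0 to 820 and 0 to 495 with 1 library left out. The settings without a filter, in 1 fit or in DESeq2 test other sets of genes or pool the spread, and the cause of each change was not tested. Deviations of same-numbered libraries from their group means correlated at -0.158, 0.121 and -0.127, and those of differently numbered libraries at -0.181 to 0.239. With so few libraries, and control 1 apart from its group, these values cannot show whether replicate numbers pair the libraries. No result changed direction among called values. Depth of 3401565 counts in afatinib 3 limits genes below a few CPM.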
